A study of Mus musculus with 8 samples.

Results

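The minor muscle miRNAs were miR-499, miR-208b and miR-486, small RNAs that are enriched in striated muscle alongside the better known miR-1, miR-133 and miR-206. They were taken as the entries mmu-miR-499-5p, mmu-miR-499-3p, mmu-miR-208b-3p, mmu-miR-486a-5p and mmu-miR-486b-5p of the deposited miRNA tables, which made 5 members among 1978 miRNAs in the count tables. The tables of normalized values listed 3 of these 5 members, among 605 miRNAs for ATF4 overexpression and 696 for P19 cells. Small RNA sequencing had been carried out in 8 libraries, 1 per condition, to ask how the unfolded protein response sensor PERK shapes miRNA levels during muscle cell differentiation. The C2C12 line, mouse skeletal myoblasts that fuse into myotubes in differentiation medium, carried either a hairpin that knocks down Perk (shPerk) or the control hairpin (shNC), and each was sampled at day 0 (D0) and day 3 (D3) of differentiation. A further pair of C2C12 libraries came from cells with an empty vector or with ATF4 overexpression, and the last pair came from P19 embryonal carcinoma cells with shNC or shPerk. The C2C12 hairpin lines were stable lentiviral lines selected with puromycin, so that control cells had been infected and selected as well, and the Atf4 coding sequence had been cloned behind a constitutive promoter. The vector and ATF4 cells had been kept in growth medium without induced differentiation, and no day was given for the P19 libraries. Perk and Atf4 mRNA were not measured by small RNA libraries, so the knockdown and the overexpression could not be checked here.

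miR-499 and miR-208b are made from introns of myosin heavy chain genes, Myh7b and Myh7, and are known for maintaining slow and beta myosin expression in heart and slow muscle. Their relative miR-208a lies in Myh6, the alpha myosin gene of cardiomyocytes. miR-486 comes from an intron of Ank1, which encodes an ankyrin of the membrane skeleton, and is known from both striated muscle and red blood cell precursors. PERK is a kinase of the endoplasmic reticulum that slows translation under protein folding stress, and ATF4 is the transcription factor whose translation then rises.

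The positions of the genes were read from the GENCODE annotation of GRCm38. Mir499 lies at chr2:155622880-155622958 on the plus strand, inside an intron of Myh7b on the same strand. Mir208b lies at chr14:54975700-54975776 on the minus strand, inside an intron of Myh7 on the same strand. Mir486 lies at chr8:23142555-23142682 on the plus strand, inside an intron of Ank1 in all 15 Ank1 transcripts that span it. The gene of miR-486b, annotated as Mir3107, lies at chr8:23142573-23142662 on the minus strand, so it falls wholly within the span of Mir486 and runs against Ank1. The counts of miR-486a-5p and miR-486b-5p were identical in 8 of 8 libraries. They are therefore given below as a single value, written miR-486-5p, and the 5 members correspond to 4 distinct sets of reads.

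The mature sequences of the myosin-hosted members are shown to compare their seeds, the bases 2 to 8 that pair with target mRNAs, in capitals. RefSeq entries for GRCm38.p6 matched 3 of the 5 members, and miR-208a-3p is added as the relative of miR-208b-3p.
mmu-miR-499-5p: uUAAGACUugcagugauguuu
mmu-miR-208b-3p: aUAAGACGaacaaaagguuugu
mmu-miR-208a-3p: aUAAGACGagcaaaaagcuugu
mmu-miR-499-3p: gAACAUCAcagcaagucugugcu
miR-499-5p and miR-208b-3p shared the run UAAGAC of 6 bases from base 2 and differed in the last base of the seed. Over the whole length, 10 of 21 positions of this pair were the same. miR-208b-3p and miR-208a-3p shared the whole seed and 19 of 22 positions, although they come from different genes. The Mir499 precursor is shown with both arms in capitals, since only its 5p arm was found at more than 1 read.
Mir499 hairpin: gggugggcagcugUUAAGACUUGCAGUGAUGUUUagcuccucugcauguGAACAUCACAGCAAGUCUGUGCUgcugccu

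The C2C12 hairpin libraries held between 8800977 and 11993448 miRNA reads, while the other 4 libraries were deposited only as RPM, reads per 1000000 miRNA reads. Levels in the hairpin libraries are given as CPM, which is the same scaling applied here to the counts. Each has a 95% exact Poisson interval, which covers counting error only. PCR copies were not marked, so the interval does not allow for repeated reads of the same molecule. The 4 skeletal muscle markers (miR-1a-3p, miR-133a-3p, miR-133b-3p and miR-206-3p) were present in all 6 C2C12 libraries, with summed levels from 3839 to 88480 CPM in the hairpin libraries and of 2467 and 3790 RPM in the vector and ATF4 libraries. The 6 embryonal carcinoma markers of the miR-302 and miR-290 families summed to at most 0.265 CPM in C2C12 hairpin libraries and to 172116 and 403102 RPM in the shNC and shPerk P19 libraries. The muscle marker miR-206-3p was not listed for P19 cells. Since every condition had 1 library, each difference below compares 2 libraries and has no replicate check. In such bulk libraries, fewer cells of a type and less RNA per cell cannot be told apart.

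miR-486-5p was by far the most read member. It had 46214 reads in shNC cells and 7599 in shPerk cells at day 0, and 59206 and 6332 reads at day 3. These reads corresponded to 4082 CPM (95% interval 4045 to 4119) and 863 CPM (844 to 883) at day 0, and to 4937 CPM (4897 to 4976) and 672 CPM (655 to 688) at day 3. Both shNC libraries thus lay above both shPerk libraries, and none of the 4 intervals overlapped. By reads, miR-486-5p had rank 36 of 1071 miRNAs in shNC cells and rank 82 of 945 in shPerk cells at day 0, and rank 33 of 1004 and rank 87 of 917 at day 3. In the other cells it was at 1028 RPM with the vector and 452 RPM with ATF4, and at 93.2 RPM in shNC and 94.7 RPM in shPerk P19 cells.

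miR-499-5p was a minor species in all libraries. It had 61 reads in shNC and 56 in shPerk cells at day 0, against 710 and 336 reads at day 3. The levels were 5.39 CPM (4.12 to 6.92) and 6.36 CPM (4.81 to 8.26) at day 0, where the intervals overlapped. At day 3 they were 59.2 CPM (54.9 to 63.7) in shNC and 35.6 CPM (31.9 to 39.7) in shPerk cells, which lay apart from each other and above both day 0 libraries. The vector library listed miR-499-5p at 0 and the ATF4 library at 3.62 RPM. The lowest value above 0 of the vector column was 1.04 RPM, so that smaller values appear to have been listed as 0 or left out. The P19 libraries held 17.4 RPM with shNC and 15.9 RPM with shPerk, in cells where the muscle markers summed to 34.5 and 96.9 RPM.

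miR-208b-3p was read in day 3 cells only among the hairpin libraries, with 12 reads in shNC and 2 in shPerk cells. No read was found at day 0, where 3 reads would have been 0.265 CPM in shNC and 0.341 CPM in shPerk cells. The 12 reads made 1.0 CPM (0.517 to 1.75) and the 2 reads 0.212 CPM (0.0257 to 0.766), and these intervals overlapped. The passenger arm miR-499-3p had 1 read in shNC cells at day 0 and none in the other hairpin libraries. miR-208a-3p, the cardiomyocyte relative, had 1 read in shNC cells at day 3, and the 5p arms of miR-208a and miR-208b had none. None of these 5 was listed in the RPM tables.

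**Figure D1:**
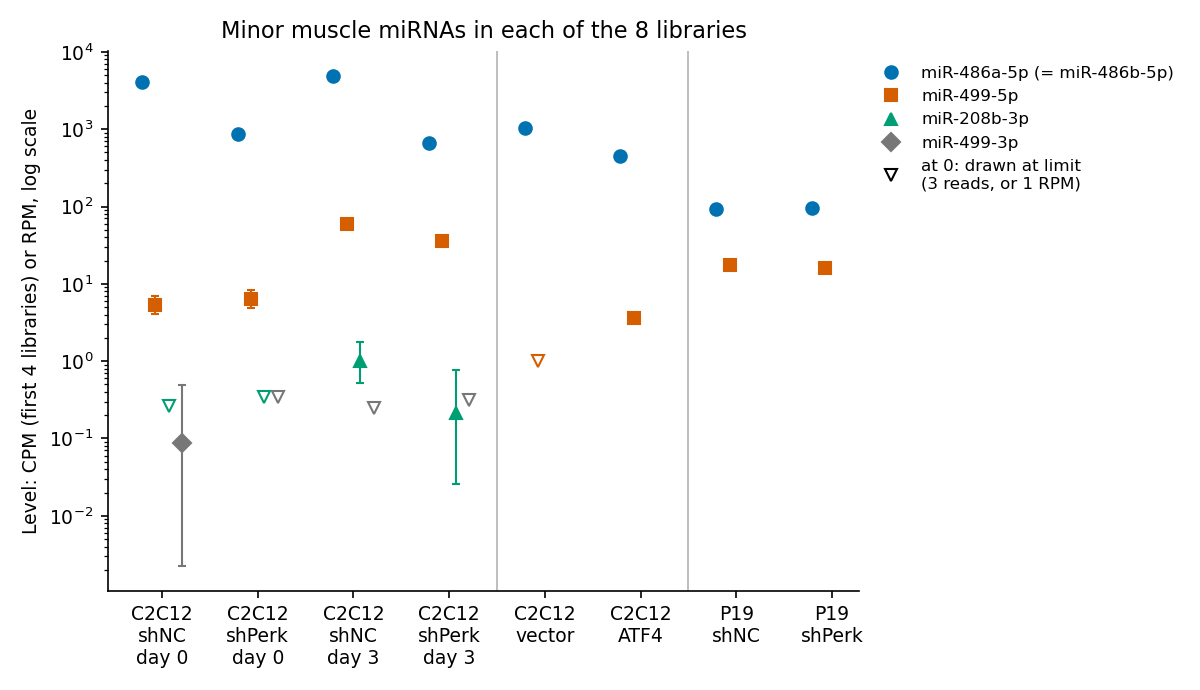
Level of each member in the 8 libraries on a log axis, in CPM for the 4 C2C12 hairpin libraries and in RPM for the others, with 95% counting intervals where reads were deposited; open triangles mark values of 0, drawn at 3 reads or 1 RPM. miR-486-5p lies at 4082 and 4937 CPM in the shNC libraries and at 863 and 672 CPM in the shPerk libraries, whereas miR-499-5p follows the day, from 5.39 and 6.36 CPM to 59.2 and 35.6 CPM.

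The comparison of shPerk with shNC at day 3 asked which miRNAs depended on PERK in differentiating myoblasts. miR-486-5p was 5.84-fold lower in shPerk cells, whereas miR-499-5p was 1.32-fold lower and miR-208b-3p stood at 2 against 12 reads. Log2 fold changes were taken after TMM scaling, which sets the bulk of miRNAs to no change, over miRNAs with at least 1 CPM in 1 of the libraries. A miRNA was called when the log2 fold change exceeded 1 in size and the reads differed at an adjusted p under 0.05 (exact binomial test, two-sided, Benjamini-Hochberg adjustment). The log2 fold change of miR-486-5p was -2.55 (-2.58 to -2.51), and it was called lower. That of miR-499-5p was -0.40 (-0.59 to -0.21, adjusted p = 4.2e-05, exact binomial test), which differed beyond counting error but did not reach the fold limit. With an assumed coefficient of variation of 0.2 between replicates, this difference did not pass the adjusted p limit either. For miR-208b-3p the log2 fold change was -1.86 (-5.11 to 0.26, adjusted p = 0.124, exact binomial test), which was not called and had entered the test only through its shNC level. Of the 4 members tested, 2 were called lower, both from the miR-486-5p reads, while 20.7% of the 575 miRNAs tested were called lower. The main muscle miRNAs, 9 entries of miR-1a, miR-133 and miR-206, had 7 of 8 tested entries called lower and a median log2 fold change of -2.21, against 0.01 over all miRNAs tested.

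The members were also set against single main muscle miRNAs, with the interval of the difference from the reads. At day 3, miR-486-5p fell further than miR-206-3p (log2 fold change -1.35) with a difference of -1.19 (-1.23 to -1.15). It fell further than miR-1a-3p (-2.07) with a difference of -0.47 (-0.51 to -0.43). miR-133a-3p (-3.76) fell more than miR-486-5p, with a difference of 1.21 (1.13 to 1.29). miR-499-5p lay above all of them in log2 fold change, by 0.95 (0.77 to 1.14) over miR-206-3p, by 1.67 (1.49 to 1.86) over miR-1a-3p and by 3.36 (3.16 to 3.56) over miR-133a-3p. The difference between miR-499-5p and miR-486-5p was 2.15 (1.95 to 2.34).

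At day 0, miR-486-5p was already 4.31-fold lower in shPerk cells, with a log2 fold change of -2.11 (-2.14 to -2.07), and was called lower. With an assumed coefficient of variation of 0.4 between replicates this call was lost (adjusted p = 0.127), whereas that at day 3 was kept (adjusted p = 0.0453, negative binomial exact test). miR-499-5p had a log2 fold change of 0.37 (-0.18 to 0.92, adjusted p = 0.202, exact binomial test), an interval that includes no change. miR-208b-3p and miR-499-3p were under the limit for testing. Of 3 members tested, 2 were called lower, again the miR-486-5p reads alone, with 18.4% of 602 miRNAs called lower. Among the main muscle miRNAs 6 of 7 tested entries were called lower, with a median of -2.19, against -0.06 over all miRNAs. miR-486-5p and miR-206-3p (-2.19) differed by 0.08 (0.04 to 0.12) in log2 fold change at this day, and miR-499-5p lay above miR-206-3p by 2.56 (2.04 to 3.09).

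**Figure D2:**
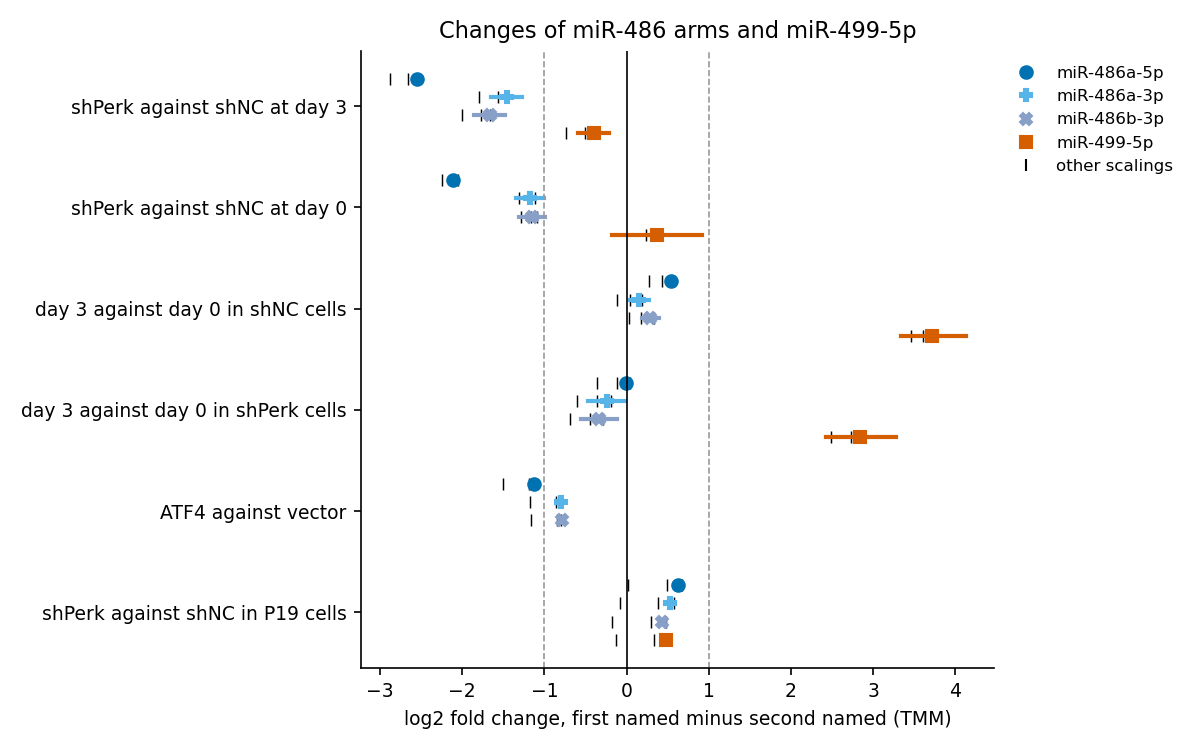
Log2 fold change of the miR-486 arms and of miR-499-5p in the 6 comparisons, first named condition minus second named, with 95% counting intervals for the 4 count comparisons, short ticks for other scalings and dashed lines at the fold limit of 1. miR-486-5p lies at -2.55 and -2.11 for shPerk against shNC in C2C12 cells. Over differentiation it lies at 0.54 in shNC and -0.00 in shPerk cells, and miR-499-5p lies at 3.72 and 2.84.

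Markers of blood cells were examined because miR-486 is also a red cell miRNA. The erythroid markers miR-451a and miR-144-3p summed to 6.54 CPM in shNC and 9.43 CPM in shPerk cells at day 0, and to 2.92 and 8.06 CPM at day 3, and thus did not move in the direction of miR-486-5p. miR-451a, the defining red cell marker, had 71 and 80 reads at day 0 and 32 and 73 reads at day 3. The 4 other blood cell markers summed to 5.48 CPM in shNC and 342 CPM in shPerk cells at day 0, and to 7.92 and 115 CPM at day 3, with 3 of the 4 found above 0 in each library. Both tested entries of this list, miR-142a-3p and miR-142a-5p, were called higher in shPerk cells at each day, with miR-142a-3p at 1977 against 28 reads at day 0 and 665 against 60 at day 3. The part of the erythroid or the other blood cell shift in the fall of miR-486-5p was not tested.

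Differentiation of shNC cells from day 0 to day 3 gave a larger rise of miR-499-5p than that of shPerk cells. miR-499-5p rose 13.2-fold, with a log2 fold change of 3.72 (3.34 to 4.13), and was called higher. miR-208b-3p went from 0 to 12 reads, which is 4.54-fold higher when day 0 is set to a floor of 3 reads. That fold leaves out the counting error of the 12 reads. With it, the counting interval of the log2 fold change began at 1.66 and had no upper limit. miR-208b-3p passed the filter on low values only through its day 3 level of 1.0 CPM, so its call is no support. The reads of miR-499-3p, 1 at day 0 and 0 at day 3, were under the limit for testing. miR-486-5p had a log2 fold change of 0.54 (0.52 to 0.56), under the fold limit. Of the 4 tested members miR-499-5p was called higher, beside miR-208b-3p with the limit just given, while 26.1% of the 593 miRNAs tested were called, 71 of them higher and 84 lower. The main muscle miRNAs had 7 of 8 tested entries called higher, with a median of 2.76 against -0.04 over all miRNAs. The rise of miR-499-5p was smaller than that of miR-1a-3p by a difference of -2.84 (-3.22 to -2.46) and larger than those of miR-133a-3p by 0.50 (0.12 to 0.88) and miR-206-3p by 1.59 (1.21 to 1.96).

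In shPerk cells, miR-499-5p still rose 7.17-fold from day 0 to day 3, with a log2 fold change of 2.84 (2.43 to 3.28), and was called higher. An assumed coefficient of variation of 0.4 ended this call (adjusted p = 0.135), but not that in shNC cells (adjusted p = 0.0147, negative binomial exact test). miR-486-5p had a log2 fold change of -0.00 (-0.05 to 0.04, adjusted p = 0.918, exact binomial test). Of 3 tested members 1 was called higher, against 15.4% of 573 miRNAs, and all 7 tested main muscle entries were called higher with a median of 2.40. miR-499-5p and miR-206-3p (2.87) differed by -0.02 (-0.43 to 0.38) here. The 2 reads of miR-208b-3p at day 3 were under the limit for testing.

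Whether differentiation moved a member differently in the presence of the Perk hairpin was measured as the change in shPerk cells minus that in shNC cells. This difference was -0.88 (-1.44 to -0.32) for miR-499-5p and -0.54 (-0.60 to -0.49) for miR-486-5p, both smaller changes in shPerk cells. For the main muscle miRNAs it was -1.43 for miR-1a-3p, -0.82 for miR-133a-3p and -0.48 for miR-133b-3p, whereas miR-206-3p had 0.73. The intervals cover counting error in these 4 libraries only.

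**Figure D3:**
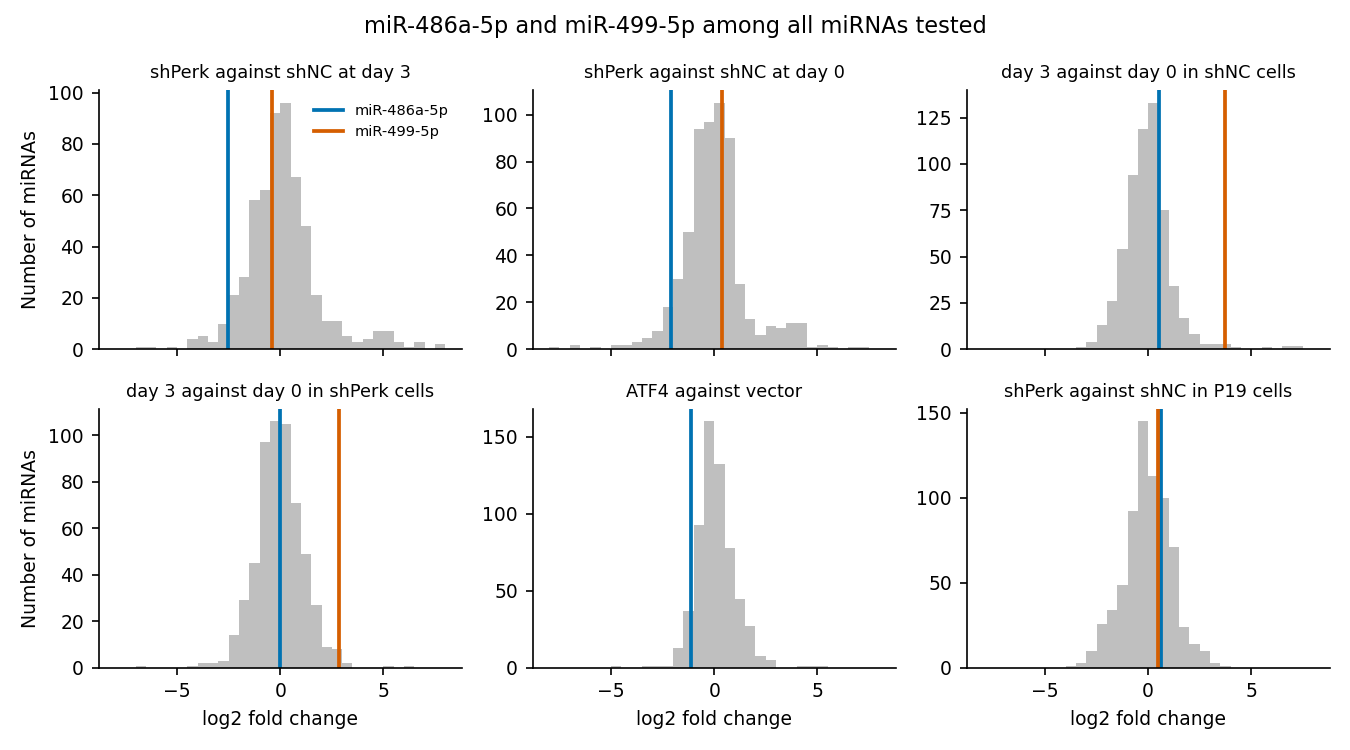
Number of miRNAs by log2 fold change in each of the 6 comparisons (grey bars, all miRNAs tested), with miR-486-5p as a blue line and miR-499-5p as an orange line. miR-486-5p lies in the lower tail in both shPerk against shNC comparisons of C2C12 (-2.55 and -2.11) and with ATF4 (-1.12), and miR-499-5p in the upper tail over differentiation; miR-499-5p has no line for ATF4 because the vector library listed it at 0.

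The miR-486 precursors also gave 3p reads, listed as separate entries for miR-486a and miR-486b. The sequences of these entries were not compared, and how reads matching both were counted is not given. The entries may therefore share reads and cannot be taken as separate evidence. miR-486a-3p had 1241 reads in shNC and 390 in shPerk cells at day 0, and 1215 and 276 at day 3. miR-486b-3p had 1363 and 436 reads at day 0, and 1468 and 289 at day 3. Both 3p arms were thus lower in the shPerk libraries at each day. Their log2 fold changes were -1.17 (-1.34 to -1.01) and -1.15 (-1.31 to -0.99) at day 0 and -1.46 (-1.65 to -1.27) and -1.66 (-1.85 to -1.48) at day 3, for miR-486a-3p and miR-486b-3p in that order, and all 4 were called lower. None of these 4 calls was kept with an assumed coefficient of variation of 0.4. The 5p arm fell further than miR-486a-3p, with a difference of -0.93 (-1.10 to -0.77) at day 0 and of -1.09 (-1.28 to -0.89) at day 3.

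The share of 5p reads among the reads of both arms was lower in shPerk than in shNC cells at each day, and higher at day 3 than at day 0 with each hairpin by a smaller step. For miR-486a it was 97.4% (97.2 to 97.5) in shNC and 95.1% (94.6 to 95.6) in shPerk cells at day 0, and 98.0% (97.9 to 98.1) and 95.8% (95.3 to 96.3) at day 3. Read as a ratio, the 5p arm had 37.2 and 48.7 reads per 3p read in shNC cells and 19.5 and 22.9 in shPerk cells. Over differentiation the log2 fold change of the 5p arm exceeded that of miR-486a-3p by 0.39 (0.27 to 0.50) in shNC cells and by 0.24 (0.0081 to 0.46) in shPerk cells. With miR-486b-3p as the partner the shares were 97.1% and 94.6% at day 0 and 97.6% and 95.6% at day 3. The RPM tables gave a 5p share for miR-486a of 97.4% with the vector and 96.7% with ATF4, and of 98.0% and 98.1% in shNC and shPerk P19 cells. Since the 5p reads cannot be divided between the 2 precursors, each of these shares counts all of them. Any 3p reads shared by the 2 entries would likewise be counted in both. For miR-499 the 5p share was 98.4% (91.3 to 100) in shNC cells at day 0 and 100% in the others, with lower bounds of 93.6%, 99.5% and 98.9%.

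**Figure D4:**
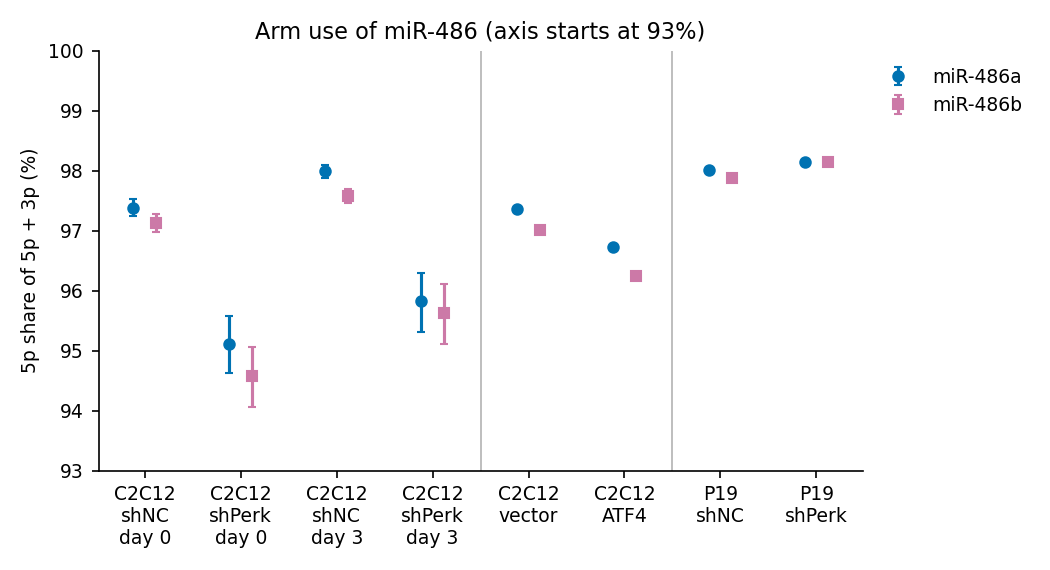
Share of 5p reads in the sum of 5p and 3p, in percent, for miR-486a (circles) and miR-486b (squares) in the 8 libraries, on an axis that starts at 93%, with 95% exact binomial intervals where reads were deposited. The shNC libraries of C2C12 lie at 97.4% and 98.0% for miR-486a and the shPerk libraries at 95.1% and 95.8%.

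The comparison of ATF4 overexpression with the vector asked whether the transcription factor downstream of PERK moves the same miRNAs. With RPM values and 1 library on each side no test was made, and a miRNA was counted when it passed a log2 fold change of 1 after TMM scaling. miR-486-5p was 2.18-fold lower with ATF4, at 452 against 1028 RPM, with a log2 fold change of -1.12. Its 3p arms were at 15.3 against 27.8 RPM (miR-486a-3p) and 17.7 against 31.8 RPM (miR-486b-3p), with log2 fold changes of -0.80 and -0.78. As miR-499-5p had a listed value of 0 in vector cells, against 3.62 RPM in ATF4 cells, no fold is given for it. Of 3 listed members, the 2 entries of miR-486-5p passed the limit downwards, as did 8.93% of the 605 miRNAs. With the vector value of 0 set to 1 RPM, miR-499-5p was counted upwards, as were 88 of the 605 miRNAs. This count rests on the set value, so it is no support. Of the main muscle miRNAs, 2 of 6 listed entries passed upwards and none downwards, with a median of 0.54 against -0.00 over all miRNAs. miR-451a was at 56.3 RPM with the vector and 42.9 RPM with ATF4, and the other blood cell markers summed to 23.2 and 10.3 RPM, lower with ATF4 as miR-486-5p was. Their part in its fall was not tested.

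In P19 cells the question was whether PERK knockdown moves miRNAs in a line that is not of muscle. miR-486-5p was at 93.2 RPM in shNC and 94.7 RPM in shPerk cells, and miR-499-5p at 17.4 and 15.9 RPM. The values as deposited were thus nearly equal, whereas TMM scaling gave log2 fold changes of 0.63 for miR-486-5p and 0.48 for miR-499-5p. Without that scaling the median over all miRNAs lay at -0.65, and the log2 fold changes were 0.02 for miR-486-5p and -0.13 for miR-499-5p. The embryonal carcinoma markers took 172116 RPM of the shNC and 403102 RPM of the shPerk library, and their part in this shift was not tested. No listed member passed the fold limit under either scaling, in a comparison where 35.3% of the 696 miRNAs passed it in one direction or the other. After TMM scaling, all 3 listed main muscle entries passed the limit upwards, as did 123 of the 696 miRNAs. The median of the 3 entries was 1.68, against -0.04 over all miRNAs. Of the 3, miR-133b-3p was at 1.79 RPM in shPerk and 1.14 RPM in shNC cells. The lowest values above 0 in these libraries were 1.12 and 1.01 RPM. Without TMM scaling its ratio was 1.57, under the limit.

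The miRNAs whose levels ran most like a member across the 4 C2C12 hairpin libraries were sought by the root mean square difference of centred log2 CPM. For miR-486a-5p, the nearest of 337 miRNAs were miR-188-5p at 0.178, miR-532-3p at 0.192 and miR-362-3p at 0.263. miR-188-5p had 2411 reads in shNC and 373 in shPerk cells at day 0 and 2301 and 333 at day 3, the same order of hairpins as miR-486-5p. miR-532-3p had 2998, 513, 2890 and 420 reads, and miR-362-3p had 1570, 342, 2267 and 349 reads, in that order of libraries. Their genes lie together in introns of Clcn5 on the same strand of chromosome X, with Mir188 at chrX:7247989-7248056, Mir532 at chrX:7248402-7248497 and Mir362 at chrX:7241982-7242046.

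No miRNA ran as closely with miR-499-5p. The nearest of 338 miRNAs were miR-199b-5p at 0.995, miR-206-3p at 1.04 and miR-322-3p at 1.07, values several times those found for miR-486a-5p. miR-199b-5p had 321 and 284 reads at day 0 and 1318 and 341 at day 3 in shNC and shPerk cells. miR-206-3p, the most read muscle miRNA here, had 206961 and 32128 reads at day 0 and 802676 and 196072 at day 3. With 4 libraries, these likenesses describe the libraries and were not tested.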

How the data were processed

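Per the labels, total RNA of C2C12 or P19 cells was made into small RNA libraries, and the authors annotated reads with bowtie against mm10 (GRCm38), as named in the submitters' processing notes. Not given in the sources used here are the bowtie version, the miRBase release and how multiply matching reads were counted. The authors deposited read counts per mature miRNA for the 4 C2C12 hairpin libraries, in 3 count tables, and RPM values for the other 4. Their fold changes, p-values and q-values were not used. In 4 comparisons of counts, miRNAs at 1 CPM or more in 1 library were scaled by TMM (edgeR 4.0.16, R 4.3.3). Log2 fold changes used a prior count of 0.125. The reads were compared by a two-sided exact binomial test in R with Benjamini-Hochberg adjustment. Intervals were computed with scipy 1.17.1. In the 2 RPM comparisons, values at 0 were set to 1 RPM. DESeq2 1.42.0 size factors were an alternative. The scripts were tested on simulated data. Nothing states whether cells came from separate cultures, and the test measures reading error only. The named miRNAs were the members, their opposite arms and paralog, the main muscle miRNAs, marker lists and, for miR-499-5p and miR-486a-5p, the 3 nearest miRNAs with a mean of 10 CPM or more. Members and lists were chosen with earlier results of these data known.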

Additional observations from a re-analysis of the deposited data

Results flagged for a closer look

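The change of miR-486-5p, the reads shared by miR-486a-5p and miR-486b-5p, had opposite signs in the 2 cell lines after TMM scaling, with a log2 fold change of shPerk against shNC of -2.55 in C2C12 cells at day 3 and 0.63 in P19 cells. The P19 value was 0.02 without further scaling, where the deposited levels were 93.2 RPM with shNC and 94.7 RPM with shPerk. That of miR-499-5p was -0.40 in C2C12 cells at day 3 and 0.48 in P19 cells, and the P19 value turned to -0.13 without TMM scaling. These differences between the lines were not tested, because the P19 values were deposited as RPM of 1 library per condition. The change from day 0 to day 3 was smaller in shPerk than in shNC cells, by a difference of -0.88 for miR-499-5p and -0.54 for miR-486a-5p on the log2 scale. The counting intervals of these differences, -1.44 to -0.32 and -0.60 to -0.49, lay below 0.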

How the results depend on the processing

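Leaving out a replicate could not be done with 1 library per condition. No paired analysis was possible because each condition had 1 library. The calls of miR-486-5p lower and of miR-499-5p higher kept their direction under every scaling and filter. An assumed coefficient of variation of 0.4 between replicates ended the call of miR-486-5p at day 0 (adjusted p = 0.127), leaving 0 members, and of miR-499-5p over differentiation in shPerk cells (adjusted p = 0.135), leaving 0 members, and left 1 member in shNC cells. Fewer calls follow from its construction. Under it all miRNAs called fell from 240 to 51 for shPerk against shNC at day 3, from 204 to 56 at day 0, from 155 to 7 over differentiation of shNC cells and from 168 to 1 in shPerk cells. With a coefficient of 0.2 they were 93 in shNC and 103 in shPerk cells over differentiation. A filter of 10 CPM, which tests fewer miRNAs, left 126 at day 0, 89 and 104 over differentiation in shNC and shPerk cells with 1 member in the former, and 10 RPM left 89 of 142 with ATF4. Collapsing identical entries counted miR-486-5p once, giving 1 member at each day. Scaling to total counts took the median of all miRNAs to between -0.19 and -0.40, and turned miR-486a-3p over differentiation of shNC cells to -0.11. It also took miR-208b-3p for shPerk against shNC at day 3 from -1.86 to -2.18, where it was called lower. The change of miR-486-5p over differentiation of shPerk cells ranged from -0.36 with total counts and -0.12 with upper quartile scaling to 0.0035 at 10 CPM, 0.042 with DESeq2 size factors and 0.084 with no filter. In P19 cells without further scaling, miR-499-5p was at -0.13, miR-486a-3p at -0.079 and miR-486b-3p at -0.17. Upper quartile scaling brought both 3p arms past the limit with ATF4 (-1.18 and -1.16). Calls higher and lower were 121 and 119 at day 3, 71 and 84 in shNC and 88 and 80 in shPerk cells over differentiation, and became 83 and 160, 48 and 129, and 48 and 150 with total counts. Upper quartile scaling gave 58 and 105 in shNC cells and 53 and 124 in place of 88 and 54 with ATF4, and no scaling gave 46 and 247 in place of 123 and 123 in P19 cells. The cause of the scaling shifts was not tested. Depth limits miR-208b-3p and miR-499-3p, of which 3 reads are 0.250 to 0.341 CPM.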
